A study of Mus musculus with 12 samples.

Results

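The genes described here are 10 inflammatory and regulatory cytokines, or inhibitors of cytokines, in the ageing mouse lung: Il10, Il6, Tnf, Ifng, Il1a, Il1rn, Il33, Il16, Csf1 and Il34. They were taken by gene symbol from a table of 55487 genes, in which all 10 were found once each. The set was chosen by the levels of these genes and their changes with age in these same libraries, so the levels below describe the members and are not tests of them. Mice of the C57BL/6NCr substrain gave lungs at ages of 6 months (6M), 12 months (12M), 20 months (20M) and 30 months (30M), and each age has 3 libraries, 12 in all. A library is written as its age and replicate number. No treatment or genetic change is given for any group, and the labels state neither sex nor whether each replicate number is a separate animal. The spread between libraries of an age may therefore be technical. Total RNA of the lung was taken through poly-A selection and paired-end sequencing, so every level is a property of the mixed tissue, and a change in the number of producing cells cannot be told apart from a change in RNA per cell.

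Cytokines are secreted or released proteins that carry signals between immune cells and the tissue around them, and most act at very low concentrations from a small number of producing cells. TNF, IL-6, interferon gamma and IL-1 alpha promote inflammation, whereas IL-10 restrains macrophages and the IL-1 receptor antagonist (Il1rn) occupies the IL-1 receptor without activating it. IL-33 is a nuclear alarmin that epithelial and stromal cells release when damaged, and in the mouse lung alveolar type 2 cells are a main source. IL-16 is cut from a larger precursor and attracts CD4+ cells, and CSF1 and IL-34 are alternative ligands of the receptor CSF1R, on which most tissue macrophages depend.

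The stretches upstream of the start sites of 4 members are shown because they hold recognition sequences of factors known to drive inflammatory genes, with Csf1 and Il16 taken from the members that were higher at 30M and Tnf and Il6 from the classical inflammatory pair. Each run is the 250 bases before a RefSeq start site (GRCm38.p6), 5′ to 3′ on the strand of the gene, and capitals mark the motif matches found.
Csf1, chr3:107760470-107760719, minus strand: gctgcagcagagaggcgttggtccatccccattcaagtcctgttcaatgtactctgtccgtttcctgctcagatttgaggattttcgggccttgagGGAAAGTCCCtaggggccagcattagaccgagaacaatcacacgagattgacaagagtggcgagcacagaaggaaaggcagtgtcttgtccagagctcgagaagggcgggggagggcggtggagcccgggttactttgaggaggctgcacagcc
Il16 (most downstream of 3 starts), chr7:83655496-83655745, minus strand: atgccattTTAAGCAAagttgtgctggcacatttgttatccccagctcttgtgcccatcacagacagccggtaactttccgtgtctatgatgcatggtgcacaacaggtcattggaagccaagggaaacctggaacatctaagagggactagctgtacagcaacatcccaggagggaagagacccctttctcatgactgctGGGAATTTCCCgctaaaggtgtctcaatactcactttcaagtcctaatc
Tnf, chr17:35202008-35202257, minus strand: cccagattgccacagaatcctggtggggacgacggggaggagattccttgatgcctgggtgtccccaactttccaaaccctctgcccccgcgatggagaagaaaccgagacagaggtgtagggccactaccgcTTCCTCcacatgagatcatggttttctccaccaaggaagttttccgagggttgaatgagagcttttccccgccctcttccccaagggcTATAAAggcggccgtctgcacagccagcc
Il6, chr5:30012864-30013113, plus strand: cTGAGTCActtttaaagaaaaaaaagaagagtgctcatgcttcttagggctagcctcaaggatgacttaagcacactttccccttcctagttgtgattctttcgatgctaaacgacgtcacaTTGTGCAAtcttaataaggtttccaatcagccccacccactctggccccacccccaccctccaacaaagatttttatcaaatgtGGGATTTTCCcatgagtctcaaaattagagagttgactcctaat
Both strands were searched for 7 motifs: the NF-kB consensus, AP-1 (TGANTCA), the gamma-activated site GAS (TTCNNNGAA), an interferon-response-like element (GAAA, any 2 bases, GAAA), PU.1 (GAGGAA), C/EBP (TTGCNNAA) and the TATA box (TATAAA). The AP-1 and GAS letters read the same on both strands. An NF-kB match lay 145 to 154 bases before the start in Csf1 and 35 to 44 bases before it in Il6, and in Il16 matches on both strands overlapped 39 to 49 bases before the start. The Il6 window also held an AP-1 match and a C/EBP match. The Il16 window held a C/EBP match on the opposite strand, 235 to 242 bases before the start. The Tnf window held a TATA box 24 to 29 bases before the start and a PU.1 match on the opposite strand. Windows were found for 8 of the 10 members, 13 windows in all. Outside the Csf1, Il6 and Il16 windows shown, no window of the members held the NF-kB consensus, that of Tnf included. The most upstream Il16 window held only AP-1 and the middle one no match. Among all 32851 mouse windows of this length, 7.25% held the NF-kB consensus, 6.75% AP-1, 7.02% GAS, 2.98% the interferon-response-like element, 23.3% PU.1, 9.56% C/EBP and 12.4% the TATA box. The matches describe the sequence and were not compared with the levels.

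Library totals ran from 12152066 to 15058628 counts, and levels are given as CPM, the counts scaled to a library of 1e+06 after TMM adjustment of the library sizes. The libraries 12M_208, 20M_221, 20M_222 and 30M_220 stood apart in that expression rose with the GC content of genes (Spearman rho over genes of 0.229 to 0.465, against -0.087 to 0.052 in the other 8). Library 20M_222 also carried skeletal muscle transcripts, with a summed level of 3275 CPM over 8 muscle markers against at most 43.4 CPM elsewhere. For the members and the called genes that rest most on these libraries, values without them follow. Library 20M_222 also held keratins of squamous epithelium, chosen after their values were seen, with Krt4 at 2279 CPM and Krt13 at 2477 CPM. Lung identity was otherwise plain in all 12 libraries, with summed alveolar type 2 markers between 18754 and 35874 CPM.

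The 10 members spanned a wide range of abundance. Together they held 34401 counts, of which Il33 gave 15010, Csf1 8950 and Il16 5910, while Ifng gave 49, Il6 98 and Il10 116. Compared per kilobase of exon, mean Il33 was highest at every age (41.2 CPM per kb at 6M and 30.2 at 30M), followed by Csf1 (8.85 and 14.7 CPM per kb). Il10, Il6 and Ifng held the last places at every age, with at most 1.36 CPM per kb. Il10 had fewer than 10 counts in 7 libraries, Il6 in 9 and Ifng in 11, so these genes are described by counts summed over the 3 libraries of an age. Ratios of summed counts are scaled by library size, and their 95% exact Poisson intervals cover counting error only, without the spread between libraries.

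At 30M against 6M the ranges of the 3 libraries did not overlap for 5 of the 10 members: Il10, Tnf, Il16 and Csf1 were higher and Il33 was lower. Among the 18407 genes with enough counts to be tested, 9.89% were higher and 8.67% lower without overlap in this comparison. At 20M against 6M the same 5 members did not overlap, in the same directions, against backgrounds of 7.6% and 7.77%. At 12M against 6M, 3 were higher without overlap (Il10, Ifng and Il16) and 0 lower, against 6.3% and 5.81%. These comparisons share their 6M libraries. For Ifng, which was not among the tested genes, the lowest 12M library and the highest 6M library both had 3 counts. At 30M against 12M, Il16 and Csf1 were higher without overlap and no member was lower (backgrounds of 7.49% and 5.75%), and at 30M against 20M Il1rn, Il16 and Csf1 were higher and no member lower (5.85% and 4.98%). In edgeR's quasi-likelihood fit over all 12 libraries, a gene was called where its Benjamini-Hochberg adjusted p was under 0.05, and 1.96% of tested genes were called at 30M against 6M (1.93% higher, 0.0272% lower). Ifng had too few counts to enter, and of the other 9 members Il10, Il16 and Csf1 were called, all higher. None was called at 20M against 6M, where the background was 0.0163%. Because this contrast helped to choose the members, nothing is read from these counts.

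**Figure D1:**
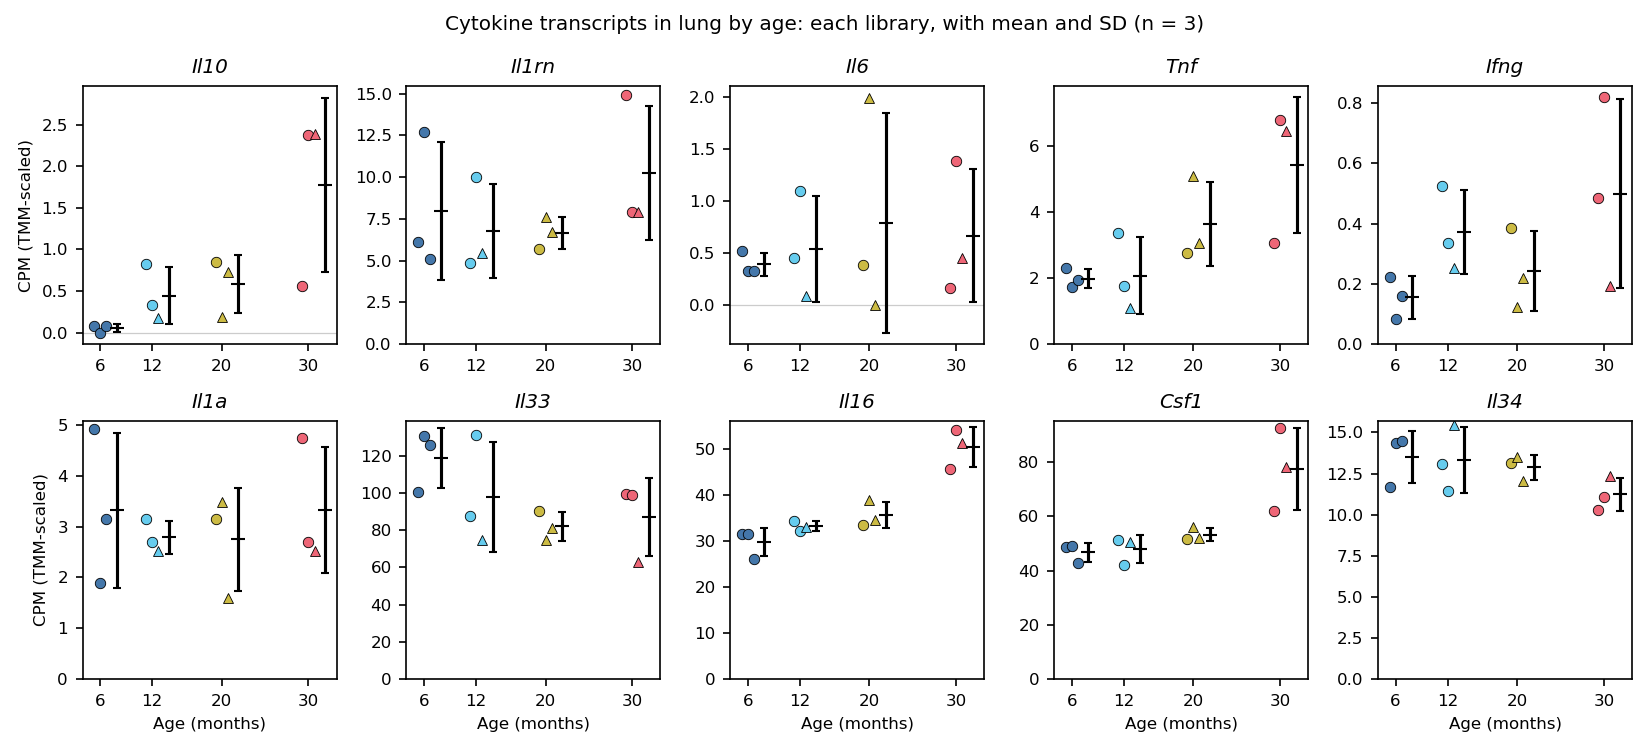
Level of each of the 10 cytokine genes (CPM after TMM scaling, vertical axes) against age in months, with 1 point per library and the mean and SD of 3 libraries per age. Triangles are the libraries 12M_208, 20M_221, 20M_222 and 30M_220, in which expression rose with GC content. Il16 and Csf1 sit above all younger libraries at 30M, and Il33 is lower at 20M and 30M than at 6M.

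Il10 encodes the main cytokine that restrains macrophages and dendritic cells. At 6M it had 1, 0 and 1 counts in 6M_201, 6M_202 and 6M_203, and the 0 allows up to 3 counts, or 0.247 CPM. Counts were 11, 4 and 2 at 12M (12M_206, 12M_207 and 12M_208) and 11, 3 and 10 at 20M (20M_213, 20M_221 and 20M_222). At 30M they were 7, 29 and 37 in 30M_216, 30M_218 and 30M_220. The 6M libraries were below every older library, whereas 12M, 20M and 30M overlapped, and 30M_216 lay within the range of the middle ages. Summed counts were thus 2, 17, 24 and 73 from 6M to 30M. The ratio of 30M to 6M was 34.5 (interval 9.22 to 290.3), that of 12M to 6M 8.70 (2.06 to 77.6), and that of 20M to 6M 10.6 (2.64 to 93.0). The wide intervals come from the 2 counts at 6M. Against 20M the 30M ratio was 3.24 (2.02 to 5.38), with overlapping libraries. The fitted log2 change at 30M against 6M was 4.85 (SE 0.97), and it ran from 4.36 to 5.26 when each library was left out in turn. Il10 lost its call without 6M_201, 6M_202, 6M_203, 30M_218 or 30M_220, and also without 20M_221, 20M_222 and 30M_220 together (log2 4.56). Summed T cell markers were 38.5 to 53.0 CPM at 6M and 76.9 to 118 CPM at 30M, and summed interstitial macrophage markers 151 to 181 CPM and 412 to 517 CPM. T cell markers at 12M (39.7 to 57.9 CPM) overlapped those of 6M. Library 12M_208 had the most T cell signal and the fewest Il10 counts of its age. At 20M the T cell markers followed the order of the Il10 counts, with 81.4, 44.8 and 59.8 CPM in 20M_213, 20M_221 and 20M_222. The interstitial macrophage markers were also lowest of that age in 20M_221 (179 CPM). At 30M the T cell markers were 76.9, 118 and 99.7 CPM in 30M_216, 30M_218 and 30M_220, lowest where Il10 counts were fewest. At 30M the interstitial macrophage markers were highest in 30M_216, with 7 Il10 counts, and lowest in 30M_220, with 37. The part of these cells in the Il10 level was not tested. Without 20M_221 and 20M_222 the 20M to 6M ratio of Il10 was 16.0 (3.50 to 148.9).

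Il1rn encodes the IL-1 receptor antagonist, a product of neutrophils, macrophages and epithelium. Its levels were 6.11, 12.7 and 5.09 CPM at 6M and 4.87, 10.01 and 5.48 CPM at 12M. They were 5.69, 7.61 and 6.71 CPM at 20M and 14.9, 7.94 and 7.94 CPM at 30M. At 6M and 12M 1 library of 3 was high, and the 30M range overlapped that of 6M. The 30M to 6M ratio was 1.28 (1.10 to 1.49), and it became 1.80 without 6M_202. The order of the mean levels was 20M, 12M, 6M and 30M, and no neighbours in that order differed by more than the larger of their SDs. Neutrophil markers varied with it: the summed level of 7 markers was 1056 CPM in 6M_202 against 243 and 162 CPM in the other 6M libraries, 832 CPM in 12M_207 against 126 and 200.5 CPM, and 735 CPM in 30M_216. Library 30M_218 had 1325 CPM of these markers with 7.94 CPM of Il1rn. None of the 7 neutrophil markers was called at 30M against 6M, and their part in the Il1rn level was not tested.

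Tnf encodes tumour necrosis factor, the membrane-bound and shed activator of inflammation made chiefly by myeloid cells and lymphocytes. Its levels were 2.31, 1.73 and 1.94 CPM at 6M and 3.37, 1.77 and 1.10 CPM at 12M. They were 2.77, 5.12 and 3.06 CPM at 20M and 3.06, 6.80 and 6.46 CPM at 30M. All 6 libraries of 20M and 30M were above the 3 of 6M, while 12M overlapped every other age. Summed counts were 76 at 6M, 79 at 12M and 160 at 20M, and the 30M libraries had 38, 83 and 100 counts. The ratio to 6M was 1.87 (1.41 to 2.49) at 20M and 2.75 (2.11 to 3.62) at 30M. Without 20M_222 the 20M ratio was 2.03 (1.51 to 2.74), and without 20M_221 as well it was 1.38 (0.902 to 2.08). The fitted log2 change at 30M was 1.44 (SE 0.43), which edgeR did not call and DESeq2 did, and the ratio stayed between 2.45 and 3.30 as libraries were left out in turn.

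Il6 encodes interleukin 6, the inducer of the acute phase response. It had 7, 4 and 4 counts at 6M, 6, 13 and 1 at 12M, 5, 32 and 0 at 20M, and 2, 17 and 7 at 30M. No neighbouring ages differed in mean by more than the larger of their SDs, and 20M held both the highest library (20M_221) and the library with no count (20M_222, which allows up to 0.219 CPM). Sums of 15, 20, 37 and 26 gave a 30M to 6M ratio of 1.64 (0.836 to 3.33), which spans 1. Without 30M_218 it was 0.816, in the opposite direction. The 20M to 6M ratio was 2.19 (1.17 to 4.29), and library 20M_221 supplied 32 of its 37 counts. Without 20M_221 that ratio was 0.473 (0.135 to 1.37).

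Ifng encodes interferon gamma, made by T and natural killer cells, and was the rarest member. Counts were 3, 1 and 2 at 6M, 7, 4 and 3 at 12M, 5, 2 and 3 at 20M, and 6, 10 and 3 at 30M. Sums were 6, 14, 10 and 19, and the 30M to 6M ratio was 2.99 (1.15 to 9.16) with overlapping libraries. The 12M to 6M ratio was 2.39 (0.862 to 7.58). On the CPM scale the 12M libraries were above those of 6M, although 12M_208 and 6M_201 both had 3 counts. Of the tested genes, which leave out Ifng, 6.3% were higher without overlap there. A predicted gene, Gm49751, shares 25.9% of the Ifng exon bases on the same strand and had 1 count in all.

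Il1a encodes interleukin 1 alpha, a membrane-associated alarmin that acts through the same receptor as IL-1 beta. Its levels were 4.92, 1.896 and 3.15 CPM at 6M and 3.15, 2.69 and 2.53 CPM at 12M. They were 3.15, 3.50 and 1.604 CPM at 20M and 4.75, 2.70 and 2.52 CPM at 30M. Every age overlapped every other, and the 30M to 6M ratio was 0.968 (0.753 to 1.24). Leaving out libraries in turn moved it between 0.770 and 1.29. Gm14023 overlaps 11.2% of the Il1a exon bases on the opposite strand at a mean of 1.07 CPM at 6M and 0.983 CPM at 30M, and its reads cannot be told apart there.

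Il33 was the most abundant member and the 1 that was lower without overlap at old age. Levels were 101, 131 and 126 CPM at 6M and 87.8, 131 and 74.8 CPM at 12M. They were 90.1, 74.6 and 81.4 CPM at 20M and 99.2, 99.0 and 63.0 CPM at 30M. The means were 119 ± 16.1, 97.9 ± 29.5, 82.0 ± 7.80 and 87.1 ± 20.8 CPM (SD, n = 3), in order of age. The highest 30M library was just under the lowest 6M library, and 12M spanned nearly the whole range. The ratio to 6M was 0.688 (0.658 to 0.720) at 20M and 0.719 (0.688 to 0.752) at 30M. At these counts the counting error is small beside the spread between libraries, and the fitted log2 change of -0.45 (SE 0.22) at 30M was not called. Il33 has a GC content of 42.5%, below the median of 49.7% over tested genes, and it was lowest at 12M, 20M and 30M in 12M_208, 20M_221 and 30M_220, which are among the libraries with more reads from GC-rich genes. Whether this has a part in the Il33 level was not tested. Without 30M_220 the 30M to 6M ratio was 0.837, and the library of 20M without that trend, 20M_213, had 90.1 CPM. The summed alveolar type 2 markers ranged from 30798 to 35874 CPM at 6M and from 18754 to 32275 CPM at 30M, with none of 8 called, and their part in the Il33 level was not tested.

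Il16 encodes pro-IL-16, whose secreted end is a ligand of CD4. Its levels were 31.4, 31.6 and 26.2 CPM at 6M and 34.3, 32.1 and 33.1 CPM at 12M. They were 33.4, 38.8 and 34.6 CPM at 20M and 45.6, 54.1 and 51.1 CPM at 30M. The 6M libraries were below all others and the 30M libraries above all others, while 12M and 20M overlapped. The mean went from 29.7 ± 3.09 to 50.3 ± 4.33 CPM (SD, n = 3), with a ratio of summed counts of 1.69 (1.57 to 1.82) at 30M, 1.20 (1.11 to 1.30) at 20M and 1.12 (1.03 to 1.21) at 12M. In 20M_213 alone, without 20M_221 and 20M_222, the 20M ratio was 1.12 (1.003 to 1.26). The fitted log2 change at 30M was 0.76 (SE 0.13), between 0.67 and 0.82 with any library left out, and its call was lost without 6M_203.

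The Il16 gene (chr7:83642825-83745726, minus strand) shares 1202 exon bases, 15.3% of its exons, with Stard5, a sterol-binding transport protein gene on the opposite strand. Whether the authors' counting used the strand is not stated in the sources used here, and reads in the shared bases cannot be told apart. Stard5 levels were close to those of Il16 in every library: 27.3, 29.3 and 26.1 CPM at 6M and 44.3, 58.0 and 49.1 CPM at 30M. Stard5 rose by a log2 change of 0.87 (SE 0.13) at 30M against 6M (edgeR adjusted p = 0.00465). Across the 12 libraries the Il16 pattern was most like those of Lrrc25, Nrros and Fyb (Pearson r 0.981, 0.978 and 0.974), the best of 14166 candidate genes and without a test.

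**Figure D2:**
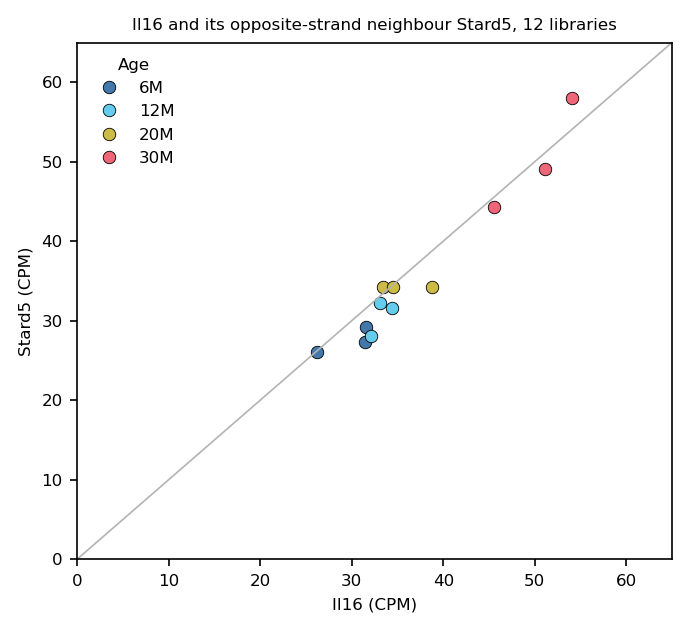
Level of Stard5 against level of Il16 (both in CPM) in the 12 libraries, coloured by age, with the line of equal values. Points lie near the line, and the 3 libraries of 30M stand above the others on both axes, from 45.6 to 54.1 CPM for Il16.

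Csf1 encodes the growth factor that maintains macrophages and monocytes. Its levels were 48.6, 49.0 and 42.7 CPM at 6M and 51.4, 42.0 and 50.5 CPM at 12M. They were 51.7, 56.0 and 51.9 CPM at 20M and 62.2, 92.4 and 78.1 CPM at 30M. Each 20M library was above each 6M and 12M library, and each 30M library above all of these, while 6M and 12M overlapped. The mean was 46.8 ± 3.51 CPM at 6M and 77.6 ± 15.1 CPM at 30M (SD, n = 3). The ratio of summed counts to 6M was 1.66 (1.56 to 1.76) at 30M, 1.14 (1.07 to 1.21) at 20M and 1.03 (0.961 to 1.10) at 12M. In 20M_213 alone the 20M ratio was 1.11 (1.01 to 1.21). The fitted log2 change at 30M was 0.73 (SE 0.15), between 0.59 and 0.86 with any library left out. Csf1 lost its call without 6M_201, 6M_202, 6M_203 or 30M_218, without 20M_221, 20M_222 and 30M_220 (log2 0.72), without these and 12M_208 (0.73), and with only the 6M and 30M libraries (0.74).

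Il34 encodes the alternative CSF1R ligand, which is best known from skin and brain. Its levels were 11.7, 14.3 and 14.5 CPM at 6M and 13.05, 11.4 and 15.4 CPM at 12M. They were 13.1, 13.5 and 12.0 CPM at 20M and 10.3, 11.1 and 12.3 CPM at 30M. The ages overlapped, with a 30M to 6M ratio of 0.842 (0.740 to 0.957) and a fitted log2 change of -0.26 (SE 0.17), not called. Per kilobase of exon the mean level of Csf1 was 8.85 against 6.89 CPM per kb for Il34 at 6M, and 14.7 against 5.73 CPM per kb at 30M. The difference between the ligands in their change with age was not tested. Il34 exons overlap the predicted genes Gm15894 (1.12% of bases) and Gm15895 (3.83%) on the opposite strand.

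**Figure D3:**
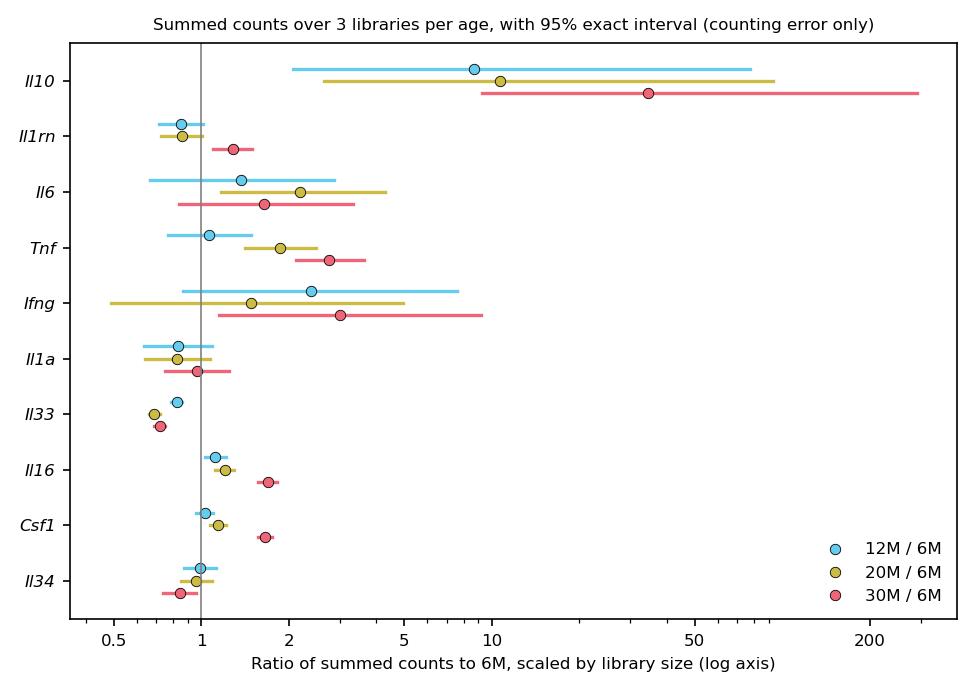
Ratio of summed counts to 6M for each member at 12M, 20M and 30M, scaled by library size, on a log axis, with 95% exact intervals that cover counting error only. At 30M Il10 is at 34.5 with a wide interval, Tnf at 2.75, Il16 at 1.69 and Csf1 at 1.66, while Il33 is at 0.719.

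The receptors through which the members act were next described as a list of 16 genes, all tested. At 30M against 6M, 2 rose, none fell and 14 were not called, against a background of 1.93% higher and 0.0272% lower, and the median log2 change of the list was 0.28 against 0.00 over all tested genes. Tnfrsf1b, the second TNF receptor, carried mainly by immune and endothelial cells, had 44.0, 36.6 and 29.4 CPM at 6M, 57.7, 55.2 and 58.6 CPM at 12M, 54.5, 67.0 and 44.8 CPM at 20M, and 111, 108 and 121 CPM at 30M. All 30M libraries were far above the rest, and 6M was below every library of the other ages. Tnfrsf1b rose by a log2 change of 1.63 (SE 0.17, edgeR adjusted p = 0.000952) against 6M, and it was also called at 30M against 12M (adjusted p = 0.0249) and against 20M (adjusted p = 0.0309). In these comparisons 0.712% (0.657% higher, 0.0543% lower) and 0.212% of tested genes were called. It kept its call at 30M against 6M in all 12 fits that left out a library, and without the 4 libraries with the GC trend its log2 change was 1.59. No gene was called at 30M against 12M without 12M_207, nor at 30M against 20M without 20M_221, 30M_216 or 30M_218.

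Csf1r, the receptor shared by CSF1 and IL-34, had 142, 119 and 128 CPM at 6M, 148, 132 and 145 CPM at 12M, 135, 161 and 139 CPM at 20M, and 230, 185 and 259 CPM at 30M. The 30M libraries were above all others, which overlapped among themselves. Its log2 change of 0.79 (SE 0.15) was called at 30M against 6M (edgeR adjusted p = 0.014), but not without 6M_202 or 6M_203. Without the 4 libraries with the GC trend it was 0.69 and was called. At 30M against 20M its adjusted p was 0.114.

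Of the remaining receptors, the first TNF receptor Tnfrsf1a had a log2 change of 0.34 (adjusted p = 0.515). The interferon gamma receptor chains Ifngr1 and Ifngr2 had 0.48 (adjusted p = 0.147) and 0.26 (0.662), and the IL-10 receptor chains Il10ra and Il10rb had 1.08 (0.222) and 0.13 (0.82). Il10ra ranged from 15.8 to 44.6 CPM at 6M and from 59.1 to 64.9 CPM at 30M. For IL-6, Il6ra and its signalling partner Il6st had log2 changes of 0.29 and 0.11 (adjusted p = 0.691 and 0.911). For IL-1, Il1r1, the decoy Il1r2 and the accessory chain Il1rap had -0.22, -0.40 and -0.32 (adjusted p = 0.558, 0.937 and 0.437). The IL-33 receptor Il1rl1 had 16.4 CPM in 30M_218 and 2.26 to 5.66 CPM in the other 11 libraries, and its log2 change turned from 0.92 to -0.50 without that library. In 30M_218 summed mesothelium markers were also high, at 1111 CPM against at most 505 CPM elsewhere, and their part was not tested. Cd4, the receptor of IL-16, had a log2 change of 1.25 (adjusted p = 0.172). The further binding partners of IL-34, Ptprz1 and Sdc1, had -0.12 and -0.25 (adjusted p = 0.912 and 0.641).

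**Figure D4:**
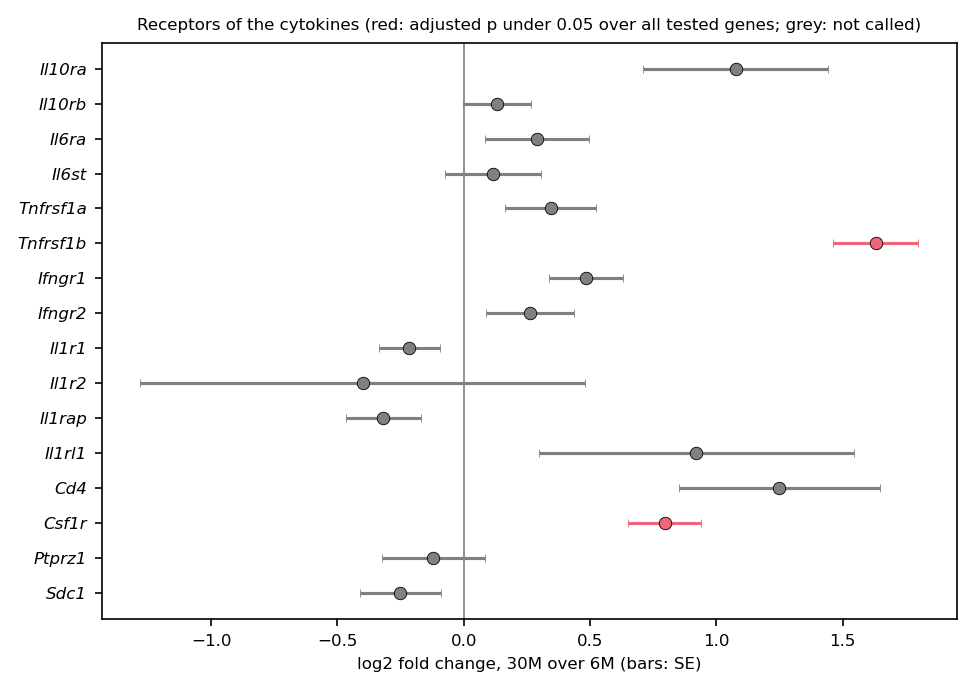
Log2 fold change at 30M over 6M for the 16 receptor genes of the members, with bars of 1 SE from the edgeR fit over 12 libraries. The 2 called genes, in red, are Tnfrsf1b at 1.63 and Csf1r at 0.79, and the other 14 are grey.

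Proteins of cytokine processing and release formed a list of 13 genes, with a median log2 change of 0.23 at 30M against 6M. Of these, 2 rose and none fell, against 1.93% higher and 0.0272% lower over all tested genes. Ctss, a cathepsin of antigen-presenting cells, went from 132 ± 19.6 to 337 ± 93.4 CPM (SD, n = 3; log2 1.35, SE 0.23, edgeR adjusted p = 0.0105), and lost its call without 6M_203. Casp1, the caspase that matures IL-1 beta and IL-18, went from 10.7 ± 1.22 to 27.9 ± 6.32 CPM (log2 1.38, SE 0.28, adjusted p = 0.0251) and lost its call without 6M_201, 6M_202, 6M_203, 30M_216 or 30M_218. Without the 4 libraries with the GC trend both were called, with log2 changes of 1.54 for Ctss and 1.55 for Casp1. Casp4 (log2 0.98, adjusted p = 0.0825) and the TNF-shedding protease Adam17 (0.25, 0.349) were not called. Casp4 was called by DESeq2, by voom, without a count filter, without 30M_220 (log2 1.16), and without the 3 or 4 libraries with the GC trend that include it, which brings the list to 3 calls. Among 32 signal transducers and their inhibitors none was called by edgeR, 6 had an unadjusted p under 0.05 (11.6% of all tested genes did) and DESeq2 called 1, with a median log2 change of 0.15. Tnip1 (log2 0.69, adjusted p = 0.177), Irak3 (0.67, 0.181), Socs1 (0.86, 0.232) and Myd88 (0.38, 0.321) were among those with the smallest p values.

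Known targets of the members were counted in the same way. Of 20 genes induced by interferon gamma, 13 rose, none fell and 7 were not called, with a median log2 change of 1.10 (over all tested genes 1.93% rose and the median was 0.00). The smallest p values belonged to Gbp5, a guanylate-binding protein (12.7 ± 3.36 to 45.3 ± 2.87 CPM, SD, n = 3; log2 1.83, edgeR adjusted p = 0.00241), the immunoproteasome subunit Psmb8 (log2 1.23, 0.003), the peptide transporter Tap1 (1.25, 0.00367), Gbp2 (1.41, 0.0064) and the GTPase Igtp (1.53, 0.00865). Set against the 6M mean, the list median was 1.22, 1.12 and 0.89 on the log2 scale in 30M_216, 30M_218 and 30M_220. It was between 0.03 and 0.49 in the 12M and 20M libraries, and from -0.16 to 0.36 in the 6M libraries themselves. The Ifng counts themselves were 6, 10 and 3 in those 3 libraries of 30M. Summed markers of cytotoxic T and NK cells, which make interferon gamma, were 53.1 to 63.2 CPM at 6M and 123, 68.3 and 70.6 CPM at 30M, with 1 of 9 called, and the T cell and interstitial macrophage markers given above were higher too. Their part in the Ifng and target levels was not tested. Many of these genes also respond to type I interferon, and Socs1 is on the transducer list too. Gbp2 lost its call without 6M_203, and Igtp without 6M_202 or 6M_203. The count of 13 fell to 10 without 6M_201, 4 without 6M_202, 3 without 6M_203, 10 without 12M_207, 8 without 30M_216 and 8 without 30M_218.

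Of 10 IL-10 targets 1 rose, where 1.93% of all tested genes rose, with a list median of 0.34. This was Hmox1, the heme-degrading enzyme of macrophages, at 33.8 ± 4.21 CPM at 6M and 54.6 ± 9.31 CPM at 30M (SD, n = 3; log2 0.69, SE 0.15, edgeR adjusted p = 0.0376), called in 5 of 12 fits with a library left out. Its call was lost without any 1 of the 6M libraries and without 12M_207, 20M_221, 30M_216 or 30M_218. Sbno2 (log2 0.45, adjusted p = 0.376), Socs3 (0.49, 0.723), Etv3 (0.17, 0.749) and Bcl3 (0.28, 0.762) were not called.

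Of 12 IL-6 and acute phase targets none was called by edgeR, 2 had an unadjusted p under 0.05 (11.6% of all tested genes did) and DESeq2 called 1, with a list median of 0.28. The acute phase gene Saa3 had 2.42 to 2.72 CPM at 6M and 16.9, 293.5 and 37.4 CPM at 30M (log2 5.51, SE 1.18, adjusted p = 0.0508). Its highest library, 30M_218, had the highest Il6 count of 30M. That library also had the highest summed mesothelium (1111 CPM) and neutrophil (1325 CPM) markers of all libraries. The part of any of these in the Saa3 level was not tested. Pim1 (0.56, 0.289), Timp1 (1.23, 0.568), Socs3 and Cebpd (-0.27, 0.757) were not called, and Timp1 turned to -0.51 without 30M_218.

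Of 16 targets of TNF and IL-1, 15 were tested and none was called by edgeR or DESeq2, 5 had an unadjusted p under 0.05 (11.6% of all tested genes did), and their median log2 change was 0.40. The NF-kB subunit Relb (log2 0.63, adjusted p = 0.168), the chemokine Cxcl2 (1.70, 0.171), Tnfaip2 (0.73, 0.205) and the NF-kB subunit Nfkb2 (0.54, 0.224) had positive changes. Ptgs2, an inducible prostaglandin synthase, had a change of -0.999 (0.257).

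Of 14 genes of macrophages that depend on CSF1R, 11 rose, none fell and 3 were not called, with a median log2 change of 1.61. Over all tested genes 1.93% rose and 0.0272% fell. The complement genes C1qc, C1qb and C1qa rose by 2.05, 1.896 and 1.65 (edgeR adjusted p = 0.000952, 0.000952 and 0.00261), the macrophage surface receptor Adgre1 by 1.96 (0.000952) and the lysosomal marker Cd68 by 1.58 (0.003). These are cell type markers as much as targets, and Csf1r is itself on the list. C1qa, C1qb, C1qc, Adgre1, Cx3cr1 and Mrc1 are also among the interstitial macrophage markers, so these lists are not separate readouts. Their list median over the 6M mean was 1.76, 1.58 and 1.40 in the 3 libraries of 30M and at most 0.45 in the 12M and 20M libraries. The count was 6 without 6M_202, 6 without 6M_203 and 7 without 30M_218. Csf1, Csf1r and interstitial macrophage markers (412 to 517 CPM at 30M, 5 of 8 called) were each higher at 30M than at younger ages. Within 30M their order differed. Csf1 was lowest in 30M_216 (62.2 CPM), where the interstitial markers were highest (517 CPM). It was highest in 30M_218 (92.4 CPM), where Csf1r was lowest of that age. A link between them was not tested. Summed alveolar macrophage markers overlapped between 6M (491 to 713 CPM) and 30M (455 to 721 CPM). Of these 8 markers, 0 were called by edgeR and 3 had an unadjusted p under 0.05 (11.6% of all tested genes did).

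**Figure D5:**
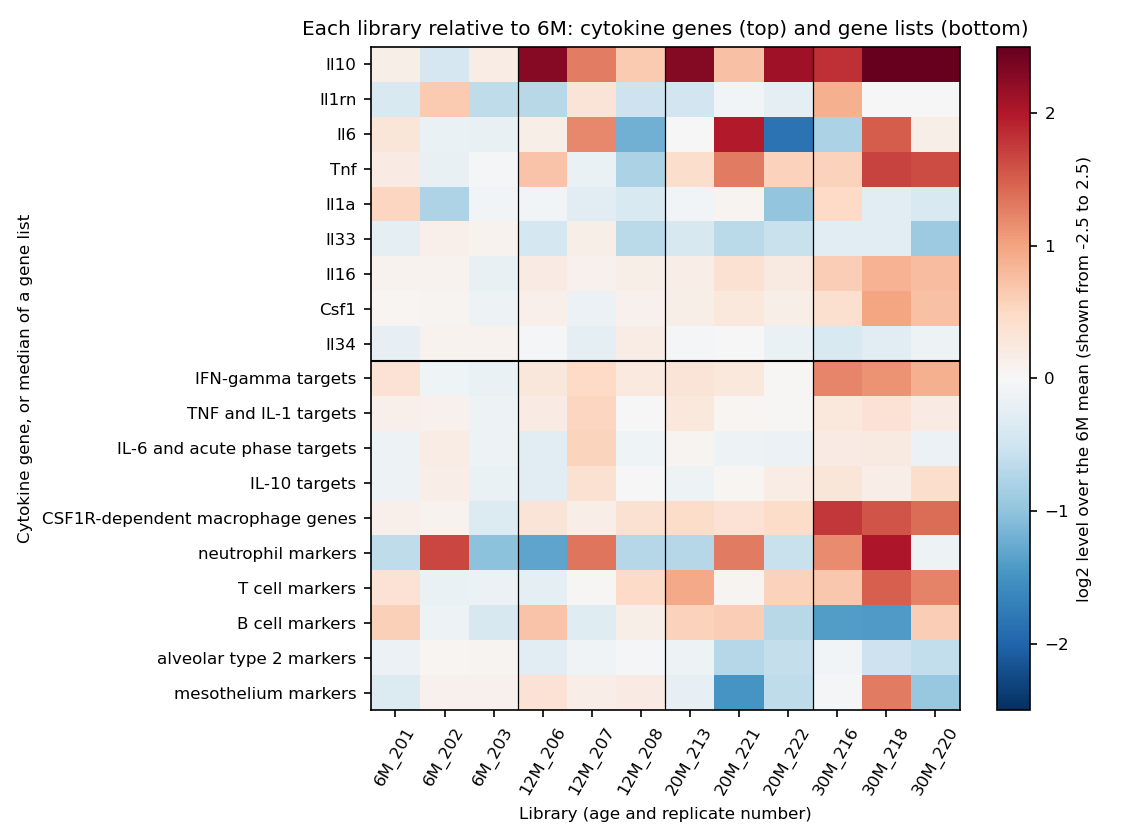
Log2 level over the 6M mean in each of the 12 libraries (columns), with colours limited at 2.5 in either direction. Rows are 9 members (0.15 CPM added) and medians of the target lists, with CSF1R-dependent macrophage genes among them. Below these are medians of neutrophil, T cell, B cell, alveolar type 2 and mesothelium markers, and other lists are not drawn. The Csf1 and Il16 rows and the macrophage and interferon gamma target rows are high at 30M, while the Il6 row differs between libraries of the same age. The Il10 row is above 6M at all older ages, and 12M_206, 20M_213 and 20M_222 are higher in it than 30M_216. Ifng is left out for its low counts.

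Among 50 other interleukins and colony-stimulating or related factors, 31 had enough counts to be tested. At 30M against 6M 1 rose and none fell, which is near the share of all tested genes (1.93% higher), and the median log2 change was 0.22. The gene called was Il18bp, the secreted inhibitor of IL-18, at 7.65 ± 0.942 CPM at 6M and 16.3 ± 5.495 CPM at 30M (SD, n = 3; log2 1.09, SE 0.23, edgeR adjusted p = 0.0325), and it lost its call without 6M_201, 6M_202, 6M_203, 30M_216 or 30M_218. The IL-27 subunits Il27 and Ebi3 had log2 changes of 1.79 and 1.46 (adjusted p = 0.0871 and 0.139), the IL-12 subunit Il12b 1.66 (0.132), and the stem cell factor gene Kitl -0.52 (0.168).

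The genes most like the remaining members over the 12 libraries were found by the same measure, the highest Pearson r of log2 CPM among 14166 or 14167 candidates, which describes these libraries only and shares their ages and depth. For Csf1 they were Stard5 (0.969), Gpsm3 (0.965) and Itgad (0.951), so the gene that overlaps Il16 was also the best match of Csf1. Il10 was most like Flt3 (0.92), Nup93 (0.885) and Lat (0.884). For Il1rn they were Slfn1 (0.867), Trem1 (0.858) and Ccl6 (0.85), of which Trem1 is a receptor of neutrophils and monocytes. Tnf was most like Pot1b (0.94), Mfsd7a (0.93) and Sox17 (0.928), Il33 like Bet1 (0.93), Snx7 (0.925) and Fyttd1 (0.924), Il1a like Myo9a (0.847), Avpr1a (0.843) and Thnsl1 (0.84), and Il34 like Gprc6a (0.891), Fibin (0.838) and Brsk1 (0.831). Il6 and Ifng had fewer than 100 counts in all and were not compared.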

How the data were processed

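Per the submitters' processing notes, the authors used FastQC 0.11.7, Trimmomatic 0.38, HISAT2 2.1.0 and featureCounts with the GRCm38 (mm10) build. Neither the annotation release nor the strand setting of counting is given in the sources used here. The authors deposited raw whole-number counts per gene, without normalization. Of the gene identifiers, 55227 of 55487 are in GENCODE M21, which gave exon overlaps and GC content.

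The counts went into edgeR 4.0.16 under R 4.3.3, using its quasi-likelihood test with robust estimation, TMM and filterByExpr by age (18407 genes, common biological coefficient of variation 23.6%), with all 12 libraries in 1 fit and p-values adjusted over all tested genes. CPM are counts scaled to 1e+06 with TMM. Libraries of the same age were checked for duplicates, and the lowest chi-square per gene between them was 6.66. The members and lists (27 lists, 287 genes) were chosen with earlier results of these data known. Named genes are all members and receptors, and of each other list up to 5 genes by smallest p at 30M against 6M. For likeness, the 3 genes with the highest r and a mean of at least 1 CPM are named. The fit was tested on simulated data for 30M against 6M. It recovered 8.96% of 1.5-fold, 31.3% of 2-fold and 69.7% of 4-fold changes, with 3 false calls among 76. A gene that was not called may therefore still have changed. Alternatives were DESeq2 1.42.0, voom of limma 3.58.1, other size factors and filters, and leaving out libraries. Some genes of the lists are not reported by name here.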

Additional observations from a re-analysis of the deposited data

How the results depend on the processing

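No paired analysis was possible because the ages share no replicate numbers. Counts of called genes moved as follows. At 30M against 6M, 361 genes were called by edgeR, 753 by DESeq2, 595 by voom, and 69 to 415 with each library left out in turn (69 without 6M_203). At 20M against 6M the count of 3 became 56 with DESeq2, 776 with voom, 11 without 12M_208, 20M_221, 20M_222 and 30M_220, and 0 to 5 with libraries left out in turn. At 12M against 6M the count of 0 (662 at an unadjusted p under 0.05) became 9 with DESeq2 and 0 to 1 with libraries left out in turn. At 30M against 12M 131 became 504 with DESeq2, 60 without the 4 libraries, and 0 to 156 in turn. At 30M against 20M 39 became 319 with DESeq2, 211 with voom, 77 without a count filter, 3 without the 4 libraries, 0 without 20M_221, 20M_222 and 30M_220, and 0 to 78 in turn. Over any age 205 became 788 with DESeq2, 1659 with voom, 316 without a filter and 67 to 285 in turn. The causes were not tested.

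For lists at 30M against 6M, the transducers had 1 call with DESeq2, voom and without the 3 or 4 libraries. IL-10 targets had 0 with only the 6M and 30M libraries. IL-6 targets had 1 with DESeq2 and with a minimum of 1 CPM in 3 libraries. The other interleukins had 3 with DESeq2, 2 with voom, 2 without the 4 libraries and 0 with only the 6M and 30M libraries. With libraries left out in turn, calls were 1 to 2 for receptors, 0 to 3 for processing, 0 to 0 for transducers, 3 to 13 for interferon gamma targets, 0 to 1 for IL-10 targets, 0 to 1 for IL-6 targets, 0 to 0 for TNF and IL-1 targets, 6 to 11 for CSF1R-dependent genes and 0 to 1 for other interleukins.

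Member ratios of 30M to 6M ranged, with libraries left out in turn, from 23.5 to 46.5 for Il10, 0.816 to 2.19 for Il6, 2.45 to 3.30 for Tnf, 2.04 to 4.11 for Ifng, 0.770 to 1.29 for Il1a, 1.01 to 1.80 for Il1rn, 0.665 to 0.837 for Il33, 1.597 to 1.76 for Il16, 1.52 to 1.80 for Csf1 and 0.786 to 0.875 for Il34. With 1 library left out, the log2 changes of 7 named genes took both signs, none of them called: Il6 (-0.31 to 1.18, negative without 30M_218), Il1a (-0.36 to 0.39), Il1rn (-0.007 to 0.87, negative without 30M_216), Il1rl1 (-0.50, range -0.50 to 1.35) and Timp1 (-0.51, range -0.51 to 1.68) without 30M_218, Ptprz1 (0.003, range -0.35 to 0.003) without 6M_203 and Il1r2 (0.77, range -0.86 to 0.77) without 6M_202. The processing list had 3 calls with DESeq2, voom, no count filter and without the 3 or 4 libraries, and Hmox1 and Il18bp lost theirs with only the 6M and 30M libraries. The set without 12M_208, 20M_221, 20M_222 and 30M_220 and the 20M ratios without libraries were chosen after seeing the data. Depth limits Il10, Il6 and Ifng, whose sums at 6M were 2, 15 and 6 counts.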

Other observations

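Further cytokine genes of the IL-1 family were seen in 1 library. The IL-36 genes Il1f5, Il1f6 and Il1f8, which squamous epithelia express, had 64, 61 and 36 counts in 20M_222 and no counts in the other 11 libraries, except for 2 counts of Il1f8 in 30M_218. The relative Il1f9 was spread over all libraries, with at least 1.18 CPM in each and 7.36 CPM in 20M_222. Library 20M_222 was also the one with skeletal muscle transcripts (3275 CPM summed). The keratins of squamous epithelium Krt4 and Krt13, chosen after their values were seen, had 31257 and 33980 counts there and at most 6 and 12 counts in any other library. Il6 had 0 counts in 20M_222 and Il1a its lowest level of the 12 libraries (1.604 CPM). Without it the 20M to 6M ratio of summed counts was 0.990 in place of 0.825 for Il1a, 3.22 in place of 2.19 for Il6, 9.15 in place of 10.6 for Il10 and 0.689 in place of 0.688 for Il33.

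Inflammatory cytokine transcripts also varied between libraries of the same age. Il1b, the secreted relative of Il1a, had a mean of 26.0 ± 15.7 CPM at 6M and 51.4 ± 24.4 CPM at 30M (SD, n = 3; log2 0.98, SE 0.69, edgeR adjusted p = 0.694), and it was chosen after its values were seen.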
